A study of Mus musculus with 31 samples.

Results

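The transcripts described here are 10 genes of the circadian clock, Per1, Per2, Per3, Cry1, Cry2, Arntl, Clock, Nr1d1, Dbp and Ciart, picked by gene symbol out of the 52636 gene identifiers measured in the caudate putamen (CPu, the dorsal striatum) of 31 mice. The members were listed to see how far a readout that follows time of day and stress differed between the groups and between single mice. All 10 passed the filter on low values in each of the 7 comparisons below, and the lowest level of any of them in any mouse was Cry1 at 8.24 TPM (a share of all transcripts in the library, already divided by transcript length).

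The study asked how a heterozygous deletion of Brd1, which encodes a scaffold protein of histone acetyltransferase complexes, alters behaviour and the reaction to the tricyclic antidepressant imipramine (IMN). Female mice of 8 to 11 weeks on a C57BL/6NTac background received 2 subcutaneous injections on consecutive days, of saline vehicle or of IMN at 10 mg/kg, with a tail suspension test after the first, and an open field and a forced swim test after the second. They were killed 1 h after the forced swim, and RNA of 1 mm punches from the right CPu was sequenced. The 4 groups were WT vehicle (n = 8), Brd1+/- vehicle (n = 7), WT IMN (n = 8) and Brd1+/- IMN (n = 8), so vehicle mice also went through every injection and behavioural test. Every Brd1+/- mouse keeps an intact copy of Brd1, the deletion is constitutive rather than limited to the CPu, only females were used, and the hour at which each mouse was killed is not given in the sources used here. The mice were kept under a 12:12 h light and dark cycle. In bulk tissue, fewer cells of a type and less RNA per cell cannot be told apart.

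The clock is a feedback loop that runs in nearly all cells. ARNTL (also called BMAL1) and CLOCK bind DNA together at E-boxes and switch on the Per and Cry genes, whose proteins return to the nucleus and block ARNTL and CLOCK. Nr1d1 (REV-ERB alpha), a repressor of Arntl, and Dbp, an activator that acts on D-boxes, are switched on by the same pair, while Ciart (CHRONO) encodes a further repressor of it. In nocturnal rodents Dbp and Nr1d1 transcripts swing widely over the day and Arntl runs roughly opposite to them, whereas Clock and Cry2 swing little. Per1 also answers rapidly to neuronal activity, cAMP signalling and glucocorticoids, which is why clock transcripts are read as a sign both of sampling time and of acute stress. In the striatum, dopamine signalling is known to shape the rhythm of Per2.

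Sequences just before the RefSeq start sites of the members (GRCm38.p6) were scanned for the letters these factors are known to recognise. A window was found for 9 of the 10 members, 13 windows of 250 bases in all. The E-box was searched as CACGTG, the D-box as TTATGTAA or TTACGTAA, the cAMP response element as TGACGTCA and the REV-ERB/ROR element as TAGGTCA, each on both strands. The E-box letters were present in 3 members (Ciart, Cry1 and Per1) and the D-box letters in 1 (Per3), and the other letters in none. Over all 32851 promoter windows of that length, 6.02% held the E-box, 0.931% the D-box, 1.55% the cAMP element and 2.23% the REV-ERB/ROR element. The 4 windows with a match are shown 5′ to 3′, the last base lying next to the start site, since these are the stretches through which the loop is known to act on its own genes; capitals mark the match.
Ciart, chr3:95882229-95882478, minus strand: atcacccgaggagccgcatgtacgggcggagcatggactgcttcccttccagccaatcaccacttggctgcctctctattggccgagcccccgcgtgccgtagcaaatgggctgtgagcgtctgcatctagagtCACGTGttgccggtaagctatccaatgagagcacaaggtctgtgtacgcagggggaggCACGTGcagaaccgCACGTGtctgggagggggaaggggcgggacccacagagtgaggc
Cry1, chr10:85185055-85185304, minus strand: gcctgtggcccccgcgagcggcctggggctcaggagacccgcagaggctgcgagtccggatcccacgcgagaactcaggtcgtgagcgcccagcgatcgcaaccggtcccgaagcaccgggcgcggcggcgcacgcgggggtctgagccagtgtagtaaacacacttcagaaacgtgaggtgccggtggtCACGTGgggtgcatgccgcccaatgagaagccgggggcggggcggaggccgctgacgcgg
Per1, chr11:69098699-69098948, plus strand: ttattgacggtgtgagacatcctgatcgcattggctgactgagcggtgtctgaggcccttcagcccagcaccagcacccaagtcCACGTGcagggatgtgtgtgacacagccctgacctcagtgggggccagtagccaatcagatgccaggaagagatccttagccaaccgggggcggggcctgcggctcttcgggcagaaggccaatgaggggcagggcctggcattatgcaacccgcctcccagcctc
Per3, chr4:151044666-151044915, minus strand: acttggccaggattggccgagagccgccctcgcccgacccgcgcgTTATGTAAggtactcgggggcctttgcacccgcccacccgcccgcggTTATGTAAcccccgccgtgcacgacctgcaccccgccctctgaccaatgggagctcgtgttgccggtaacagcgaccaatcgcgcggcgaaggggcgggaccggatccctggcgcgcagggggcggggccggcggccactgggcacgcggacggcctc
Ciart carried 3 E-boxes, 116, 58 and 44 bases before its start, Cry1 carried 1 at 60 bases and Per1 carried 1 at 166 bases. Per3 carried 2 D-boxes, at 205 and 158 bases. A match is only a description of the letters. Bases farther upstream or past the start were not scanned, so a missing match does not show that a gene lacks the element.

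Before the levels are compared, 2 features of the samples need to be given. First, WT vehicle mouse 7 had a summed level of 26.8 TPM over 4 Y-linked genes, where none of the remaining 30 mice exceeded 0.188 TPM, although every mouse is labelled female. Secondly, the punches differed in tissue make-up. The summed level of 10 cortical neuron markers (Slc17a7, Tbr1 and others) was 1005 to 2308 TPM in 6 of 8 WT vehicle mice (1, 2, 3, 4, 5 and 7) and 1160 TPM in WT IMN mouse 5, and 103 to 582 TPM in the remaining 24 mice. The 10 striatal projection neuron markers summed to 319 TPM in WT vehicle mouse 2, 1337 to 6989 TPM in the other 6 cortex-rich mice, and 7140 to 11207 TPM in the 24 others. Calls of the 10 members are given with and without these mice. Leaving all 7 out keeps only 2 WT vehicle mice, numbers 6 and 8. The targeted gene followed the genotype labels: Brd1 ran from 18.3 to 26.9 TPM in WT vehicle mice and from 11.1 to 16.0 TPM in Brd1+/- vehicle mice, and from 14.6 to 22.5 TPM in WT IMN mice and from 11.3 to 13.8 TPM in Brd1+/- IMN mice, with no overlap between genotypes under either treatment. The log2 fold change of Brd1 was -0.71 (SE 0.10) under vehicle and -0.60 (SE 0.08) under IMN, with limma adjusted p-values of 0.0556 and 0.0396. The read total of each library is not given in the sources used here, and the deposited unit keeps no depth.

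**Figure D1:**
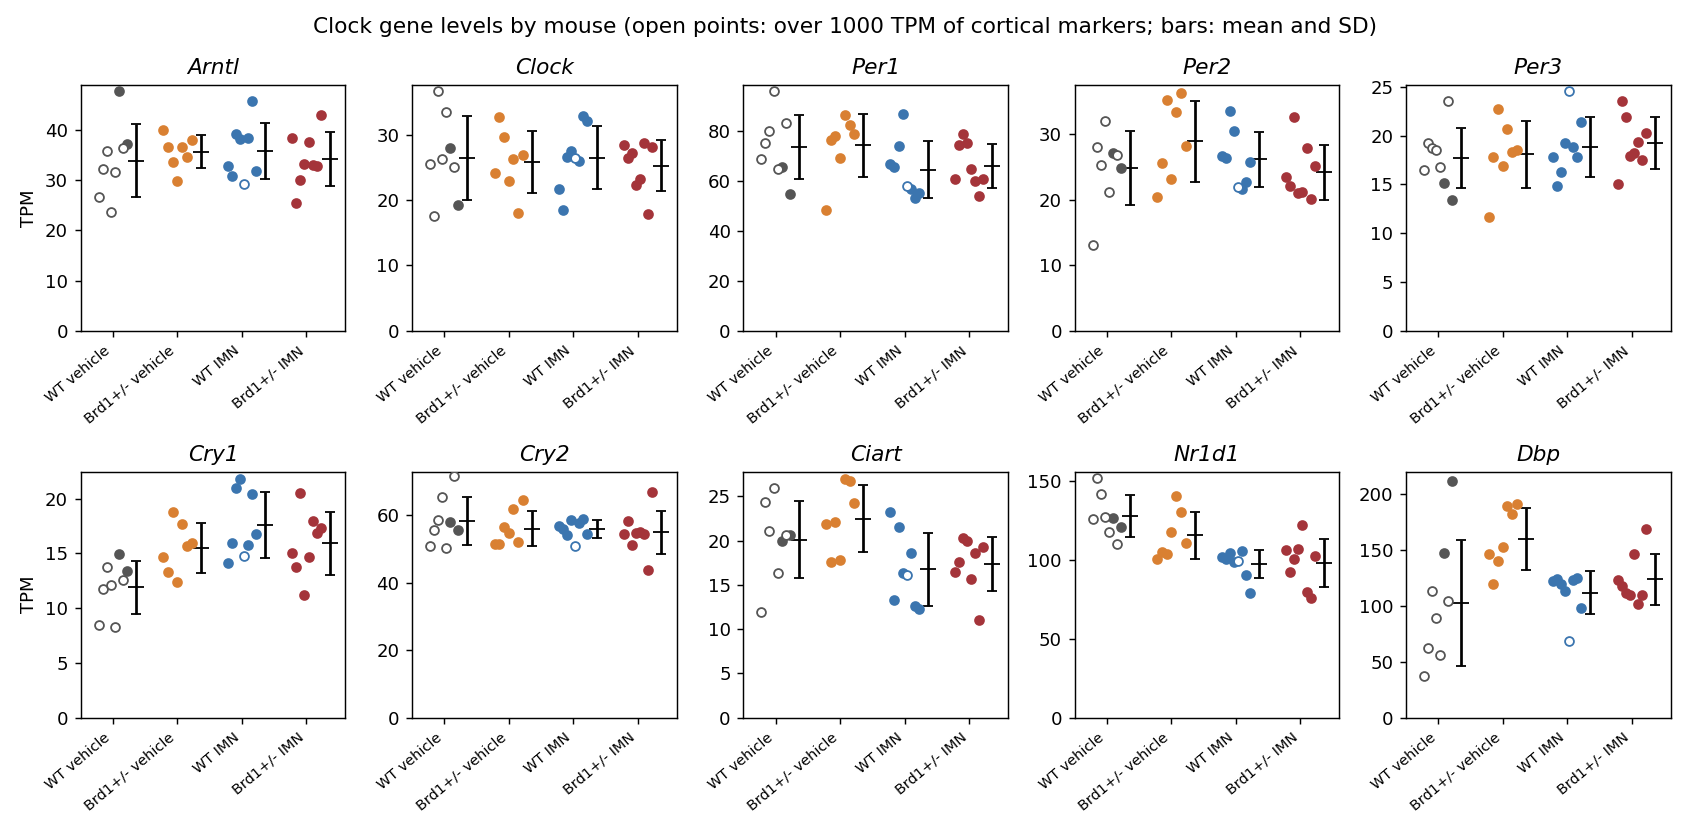
Level of each clock gene in TPM (vertical axes, each from 0) for each mouse, by group; the horizontal mark and bar to the right of each group are its mean and SD. Open points are the 7 mice with over 1000 TPM of cortical markers. Nr1d1 of all WT IMN mice lies below all WT vehicle mice, while Arntl, Clock, Per3 and Cry2 overlap throughout.

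Among the members, Dbp and Nr1d1 were the most abundant and Cry1 and Per3 the least. Averaged over 31 mice, the level was 123 ± 39.5 TPM for Dbp (SD), 109 ± 18.2 for Nr1d1, 69.2 ± 11.8 for Per1 and 56.2 ± 5.51 for Cry2. Next came Arntl at 34.9 ± 5.44 TPM, then Clock at 26.0 ± 4.83, Per2 at 26.0 ± 5.18, Ciart at 19.1 ± 4.33, Per3 at 18.5 ± 2.96 and Cry1 at 15.2 ± 3.31 TPM. Dbp was also the most variable within groups. Its within-group SD on the log2(TPM + 1) scale was 0.47, higher than that of 85.3% of 17374 genes with a mean of at least 1 TPM, and it was 0.80 in WT vehicle mice against 0.24 to 0.29 in the other groups. Cry2 was the steadiest, with an SD of 0.14, higher than only 7.83% of those genes. The other 8 members had SDs of 0.18 to 0.30, around the median gene (0.25).

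Nr1d1, the repressor of Arntl, was lower after IMN. Its lowest, median and highest levels were 110, 126 and 152 TPM in WT vehicle mice and 78.8, 100 and 106 TPM in WT IMN mice. In the Brd1+/- mice they were 101, 111 and 140 TPM under vehicle and 75.6, 101 and 122 TPM under IMN. Every WT IMN mouse lay below every WT vehicle mouse, and the Brd1+/- groups overlapped, with 4 of 8 IMN mice under the lowest vehicle mouse. A gene is called here at an unadjusted limma p under 0.01, and the p-values printed are adjusted over all genes tested. The log2 fold change of Nr1d1 with IMN in WT was -0.39 (SE 0.08, limma adjusted p = 0.132), a call, with the 14th smallest p of 23579 genes tested. The exact two-sided permutation test of the single gene gave 0.000155, the smallest p that 8 against 8 mice allow. Without WT vehicle mouse 7 it was -0.42. In Brd1+/- mice the log2 fold change was -0.24 (SE 0.10), which missed the threshold (limma adjusted p = 0.662), and -0.29, called, without Brd1+/- IMN mouse 5. Averaged over both genotypes, Nr1d1 fell by 0.31 on the log2 scale (SE 0.06) and passed at a false discovery rate (FDR) of 5% (limma adjusted p = 0.0193, rank 36 of 25394 genes). The interaction of genotype and IMN was 0.15 (SE 0.13, limma adjusted p = 0.573), so a difference in the drop between genotypes was not shown.

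The size of the Nr1d1 difference moved with the mice included and with the scaling of the libraries. Without the 7 cortex-rich mice, which leaves 2 WT vehicle mice, the log2 fold change was -0.35 in WT (limma adjusted p = 0.521) and -0.30 averaged over genotypes (limma adjusted p = 0.222), both still called but not at an FDR of 5%. With the striatal marker score as a covariate the average was -0.29 (limma adjusted p = 0.0529). Scaling the libraries by the median of ratios gave -0.26 in WT (limma adjusted p = 0.183), no longer called, and -0.26 averaged over genotypes (limma adjusted p = 0.108), still called but not at an FDR of 5%. Quantile normalization gave -0.22 in WT (limma adjusted p = 0.204), not called, and -0.22 averaged over genotypes (limma adjusted p = 0.140), called. Thra overlaps the end of Nr1d1 on the opposite strand by 1075 bases, so reads there could be split between them if strand was not used. Thra was 421 TPM on average, and its log2 fold change with IMN was -0.14 in WT (limma adjusted p = 0.496) and -0.02 averaged over genotypes (limma adjusted p = 0.927).

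Ciart, the further repressor of ARNTL and CLOCK, was also lower after IMN when both genotypes were averaged. The lowest, median and highest levels were 11.9, 20.6 and 25.9 TPM in WT vehicle mice and 12.2, 16.3 and 23.2 TPM in WT IMN mice. They were 17.6, 22.1 and 27.0 TPM in Brd1+/- vehicle mice and 11.1, 18.1 and 20.3 TPM in Brd1+/- IMN mice. The WT groups overlapped over nearly their whole range, while 4 of 8 Brd1+/- IMN mice lay under every Brd1+/- vehicle mouse. The log2 fold change averaged over genotypes was -0.30 (SE 0.10, limma adjusted p = 0.148). Within genotypes it was -0.25 in WT (SE 0.16, limma adjusted p = 0.340) and -0.36 in Brd1+/- mice (SE 0.13, limma adjusted p = 0.565), neither past the threshold. It was called in Brd1+/- mice without vehicle mouse 2 or 4 or IMN mouse 3 or 4, at -0.41 to -0.39. Without the cortex-rich mice the average was -0.33 and missed the threshold (limma adjusted p = 0.364). The call averaged over genotypes also ended when WT vehicle mouse 2 or 4, Brd1+/- vehicle mouse 5, 6 or 7, WT IMN mouse 2, 7 or 8 or Brd1+/- IMN mouse 5 or 7 was left out, with log2 fold changes of -0.30 to -0.26. The antisense gene C920021L13Rik spans all of Ciart, and reads of the pair cannot be told apart without strand. C920021L13Rik ran from 1.09 to 5.23 TPM over the mice. Its log2 fold change with IMN was 0.05 averaged over genotypes (limma adjusted p = 0.898), -0.11 in WT (limma adjusted p = 0.786) and 0.20 in Brd1+/- mice (limma adjusted p = 0.855).

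Cry1, a repressor of ARNTL and CLOCK, was higher after IMN in WT mice. Its lowest, median and highest levels were 8.24, 12.4 and 15.0 TPM in WT vehicle mice and 14.1, 16.4 and 21.8 TPM in WT IMN mice. In Brd1+/- mice they were 12.4, 15.7 and 18.7 TPM under vehicle and 11.2, 15.9 and 20.6 TPM under IMN. In WT, 6 of 8 IMN mice exceeded every vehicle mouse, whereas the Brd1+/- groups covered the same range. The log2 fold change with IMN was 0.53 (SE 0.13) in WT (limma adjusted p = 0.141) and 0.03 (SE 0.11) in Brd1+/- mice (limma adjusted p = 0.979), so that it was called in WT. The interaction was -0.50 (SE 0.18, limma adjusted p = 0.261), a call that ended when any of 13 mice was left out (WT vehicle 1 and 5, Brd1+/- vehicle 3, 5, 6 and 7, WT IMN 3, 4 and 7, Brd1+/- IMN 1, 2, 4 and 5), with values of -0.50 to -0.44. Averaged over genotypes the log2 fold change was 0.28 (SE 0.09, limma adjusted p = 0.119).

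The WT vehicle mice that were low in Cry1 were cortex-rich. Without the 7 cortex-rich mice, the log2 fold change of Cry1 with IMN in WT was 0.31 (limma adjusted p = 0.658), the average over genotypes was 0.17 (limma adjusted p = 0.595) and the interaction was -0.28 (limma adjusted p = 1.0). None of these passed. Cry1 also differed between genotypes under vehicle by 0.37 (SE 0.13, limma adjusted p = 0.0802), just outside the threshold, and by 0.11 (limma adjusted p = 0.953) without those mice. It was called there without WT vehicle mouse 6 or Brd1+/- vehicle mouse 4, at 0.41 and 0.42. WT vehicle mouse 7 made little difference to Cry1: without it, IMN in WT gave 0.55.

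Dbp, the D-box activator, was the member with the widest range. Its 8 WT vehicle mice stood at 37.2, 55.6, 62.0, 88.8, 104, 113, 147 and 211 TPM. The lowest, median and highest levels were 119, 152 and 190 TPM in Brd1+/- vehicle mice, 68.5, 121 and 125 TPM in WT IMN mice, and 102, 114 and 168 TPM in Brd1+/- IMN mice. The WT vehicle range enclosed the range of each of the other groups, and its 2 highest mice, numbers 6 and 8, are the 2 that were not cortex-rich. In Brd1+/- mice, none of which was cortex-rich, Dbp fell by 0.37 on the log2 scale with IMN (SE 0.12, limma adjusted p = 0.519), with 5 of 8 IMN mice under every vehicle mouse. The exact two-sided permutation test gave 0.0151, which missed 0.01, and the striatal marker score as a covariate reduced the difference to -0.16 (limma adjusted p = 0.819). The call ended without Brd1+/- vehicle mouse 5, 6 or 7 or Brd1+/- IMN mouse 1, 2, 3, 4, 6 or 7, at log2 fold changes of -0.37 to -0.33. In WT the log2 fold change was 0.29 (SE 0.28, limma adjusted p = 0.552).

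The sign of the IMN difference of Dbp in WT depended on which punches were compared. Without the 7 cortex-rich mice it was -0.58 (SE 0.13, limma adjusted p = 0.358), with 2 WT vehicle mice against 7 WT IMN mice, and was then called. Averaged over genotypes it was -0.04 (limma adjusted p = 0.924) with all mice and -0.48 (SE 0.10, limma adjusted p = 0.106) without them, where it was likewise called. The genotype differences moved the same way. Under vehicle, Dbp differed by 0.81 (SE 0.29, limma adjusted p = 0.0813), outside the threshold but called without WT vehicle mouse 6 (0.91) or 8 (0.98), and averaged over treatments it was higher in Brd1+/- mice by 0.48 (SE 0.16, limma adjusted p = 0.0614). The averaged call ended without WT vehicle mouse 2 or 5, Brd1+/- vehicle mouse 5 or 7, WT IMN mouse 5 or Brd1+/- IMN mouse 8, at 0.43 to 0.46. Without the cortex-rich mice the 2 differences were -0.16 (limma adjusted p = 0.948) and -0.05 (limma adjusted p = 0.978). The 3′ end of Dbp overlaps Sphk2 on the opposite strand by 737 bases, and Sphk2 had a log2 fold change of 0.05 with IMN in Brd1+/- mice (limma adjusted p = 0.930) and of -0.11 in WT (limma adjusted p = 0.434). Between genotypes Sphk2 was -0.24 under vehicle (limma adjusted p = 0.0861) and -0.16 averaged over treatments (limma adjusted p = 0.0680), the latter called, in the direction opposite to Dbp.

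**Figure D2:**
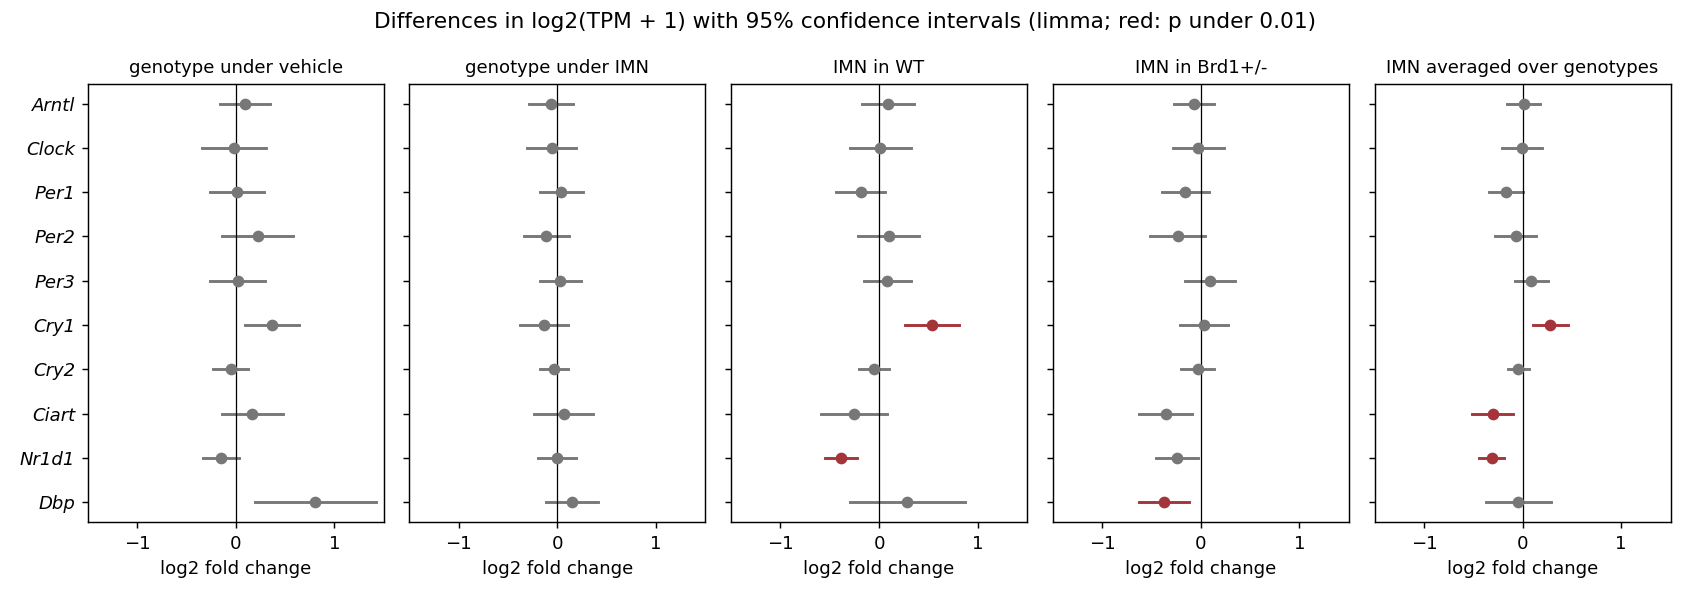
Log2 fold change (horizontal axes) of each clock gene in 5 comparisons, with points for the estimate, lines for the 95% confidence interval and red for a limma p under 0.01. Nr1d1 and Cry1 pass with IMN in WT, Dbp in Brd1+/- mice, and no member passes between genotypes within a treatment.

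With all mice the Per genes did not pass in any comparison. Per1, the member best known for answering acute stimuli, had lowest, median and highest levels of 54.5, 71.8 and 95.8 TPM in WT vehicle mice and 48.1, 77.7 and 86.4 TPM in Brd1+/- vehicle mice. The corresponding levels were 53.0, 61.5 and 86.5 TPM in WT IMN mice and 53.8, 62.5 and 78.6 TPM in Brd1+/- IMN mice. All 4 ranges overlapped. Its log2 fold change with IMN averaged over genotypes was -0.17 (SE 0.08, 95% confidence interval -0.34 to 0.0017, limma adjusted p = 0.302). Without the 7 cortex-rich mice it was -0.02, and the difference with IMN in WT went from -0.18 to 0.11. Without Brd1+/- vehicle mouse 1, Per1 was called, at -0.22 averaged over genotypes and at -0.25 instead of -0.16 in Brd1+/- mice. Per2 averaged 24.9 ± 5.64 TPM (SD, n = 8) in WT vehicle mice, 29.0 ± 6.24 (n = 7) in Brd1+/- vehicle mice, 26.2 ± 4.22 (n = 8) in WT IMN mice and 24.2 ± 4.24 (n = 8) in Brd1+/- IMN mice. Its differences between groups ran from -0.24 with IMN in Brd1+/- mice (limma adjusted p = 0.752) to 0.22 between genotypes under vehicle (limma adjusted p = 0.383), and its interaction was -0.33 (limma adjusted p = 0.407). Per3, whose gene lies inside the much longer Camta1 on the same strand, averaged 17.7 to 19.2 TPM in the 4 groups, and its largest difference with all mice was 0.10 (SE 0.12) with IMN in Brd1+/- mice. It differed, without the cortex-rich mice, by 0.31 with IMN in WT and by 0.30 between genotypes under vehicle, neither of them called.

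Arntl and Clock, the activating pair, and Cry2 were called in none of the 7 comparisons. Arntl averaged 33.9 ± 7.35 TPM (SD, n = 8) in WT vehicle mice, 35.7 ± 3.28 (n = 7) in Brd1+/- vehicle mice, 35.8 ± 5.57 (n = 8) in WT IMN mice and 34.2 ± 5.42 (n = 8) in Brd1+/- IMN mice. Averaged over genotypes, its difference with IMN was 0.01 on the log2 scale, with a 95% confidence interval of -0.16 to 0.18. The same interval was -0.21 to 0.20 for Clock and -0.15 to 0.06 for Cry2. Without the 7 cortex-rich mice the sign of Arntl turned, from 0.09 to -0.21 with IMN in WT and from 0.09 to -0.24 between genotypes under vehicle, and neither value was called. Clock averaged 25.3 to 26.5 TPM and Cry2 54.9 to 58.2 TPM over the groups. These intervals bound the differences that the data allow and do not show that levels were equal.

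Counted over the 10 members at p under 0.01, 0 were called between genotypes under vehicle, where 13.6% of all 23200 genes tested were called, and 0 under IMN, where 0.703% of 23339 genes were. With IMN, 2 members were called in WT (Nr1d1 lower, Cry1 higher) against 6.95% of 23579 genes, and 1 in Brd1+/- mice (Dbp lower) against 1.83% of 23020 genes. The interaction called 1 member (Cry1) against 3.74% of 25394 genes. IMN averaged over genotypes called 3 (Nr1d1 and Ciart lower, Cry1 higher) against 5.88%, and genotype averaged over treatments called 1 (Dbp higher) against 12.5%. In the genotype comparisons under vehicle and under IMN and in genotype averaged over treatments the members' shares were at or below the background. In the interaction and with IMN in Brd1+/- mice the count was 1 member, the smallest count above 0. The background moved with the mice and the scaling: without the 7 cortex-rich mice it was 0.892% between genotypes under vehicle, 1.90% with IMN in WT, 3.07% with IMN averaged over genotypes and 0.778% for genotype averaged over treatments. With single mice left out it ran from 8.89% (without WT vehicle 5) to 22.4% (WT vehicle 8) under vehicle, from 3.88% (WT vehicle 5) to 15.3% (WT vehicle 8) with IMN in WT, and from 2.16% (WT vehicle 1) to 10.2% (WT vehicle 8) for the interaction. The range was 4.74% to 10.3% with IMN averaged over genotypes and 9.5% to 19.1% for genotype averaged over treatments, both highest without WT vehicle 8. Under vehicle 342 genes were higher and 2811 lower in Brd1+/- mice, against 931 and 1207 with median-of-ratios scaling. At an FDR of 5%, the sole member called by limma was Nr1d1 with IMN averaged over genotypes, where 0.453% of all genes were called. Under alternatives, single mice left out included, Dbp and Cry1 under vehicle, Cry1 and Nr1d1 with IMN in WT, and Dbp for genotype averaged over treatments also reached it, with smallest limma adjusted p-values of 0.0136, 0.0375, 0.0210, 0.0205 and 0.00784. Many other genes passed under such alternatives. In 1 fit of all 4 groups, for instance, 19.5% of all genes passed under vehicle and 9.02% with IMN in WT, against the main shares given next. The share of all genes called at that FDR was 0% between genotypes under vehicle (0 genes, with 7168 at an unadjusted p under 0.05), 0.00428% under IMN (1 gene, Brd1), 0.00424% with IMN in WT, 0% with IMN in Brd1+/- mice (0 genes, 1633 at an unadjusted p under 0.05), 0% for the interaction (0 genes, 4119 at an unadjusted p under 0.05) and 5.93% for genotype averaged over treatments. These counts depended on the fit. Under vehicle 4963 genes passed with all 4 groups in 1 fit, and 4563 or 5482 when WT vehicle mouse 6 or 8 was left out. With the mouse number as a block 3583 passed there, and 1833 when only genes with a mean of at least 1 TPM were fitted. With IMN in WT 2291 passed in 1 fit, and 1176 or 2459 without WT vehicle mouse 6 or 8. IMN averaged over genotypes went from 115 to 7 without the cortex-rich mice. Leaving out a single mouse took that count to between 42 (without Brd1+/- vehicle 5) and 1203 (without WT vehicle 8). Genotype averaged over treatments went from 1505 to 4 with median-of-ratios scaling, to 1 without the cortex-rich mice, and to between 1 and 4704 with a single mouse left out, the latter without WT vehicle 8. Median log2 fold changes of all genes were -0.13 between genotypes under vehicle, a shift that scaling by the median of ratios brought to 0.0023, and within 0.1 of 0 in the IMN comparisons. The median of the 10 members was 0.06 between genotypes under vehicle, 0.05 with IMN in WT and -0.11 with IMN in Brd1+/- mice. WT vehicle mice serve in both the genotype comparison under vehicle and the IMN comparison in WT, and Brd1+/- vehicle mice in 2 comparisons as well, so these values are not independent of each other.

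Relations across mice were computed on the log2(TPM + 1) scale for 39 pairs, of the other 9 members with Arntl and of all 10 with mean log2 scores of cortical, striatal and glucocorticoid-responsive genes, with two-sided permutation p-values (100000 resamples) and Benjamini-Hochberg adjustment over the 39. Over the day Arntl and Dbp are known to run roughly opposite, but here Dbp was higher in mice with more Arntl, with Pearson r = 0.53 (permutation p = 0.0026, adjusted p = 0.0149) and Spearman rho = 0.59 (permutation p = 0.00049). Without the 2 mice farthest from the median of Arntl r was 0.53. As deviations from the group means r was 0.56 (permutation p = 0.00777, adjusted p = 0.0501) and Spearman rho was 0.60 (permutation p = 0.00109, adjusted p = 0.0085), so rho passed and r did not. Within the 24 mice that were not cortex-rich r was 0.33 (permutation p = 0.116), and within the 7 cortex-rich mice it was 0.44 (exact permutation p = 0.331), so the relation did not pass within either set. Of the other members, the nearest to passing was Cry1, with r = 0.43 (permutation p = 0.0148, adjusted p = 0.0578), and Nr1d1 stood at 0.0072 (permutation p = 0.971).

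**Figure D3:**
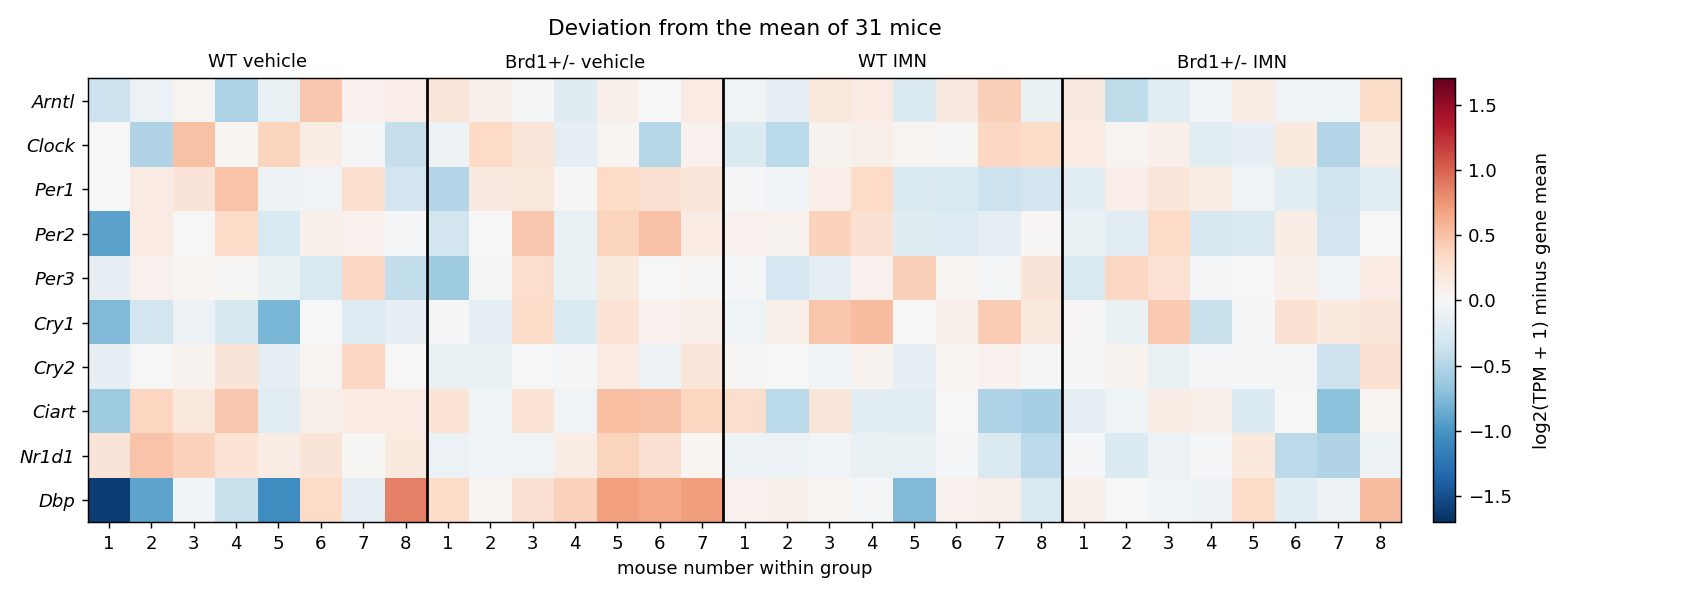
Deviation of each clock gene (vertical) in each of 31 mice (horizontal, by group and mouse number) from the gene's mean over all mice, on the log2(TPM + 1) scale; red is above and blue below the mean. Dbp is far below its mean in WT vehicle mice 1, 2 and 5 and WT IMN mouse 5, where Cry2 is also below its mean but lies nearer to it on this scale, and Nr1d1 is above its mean in each of the 8 WT vehicle mice.

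**Figure D4:**
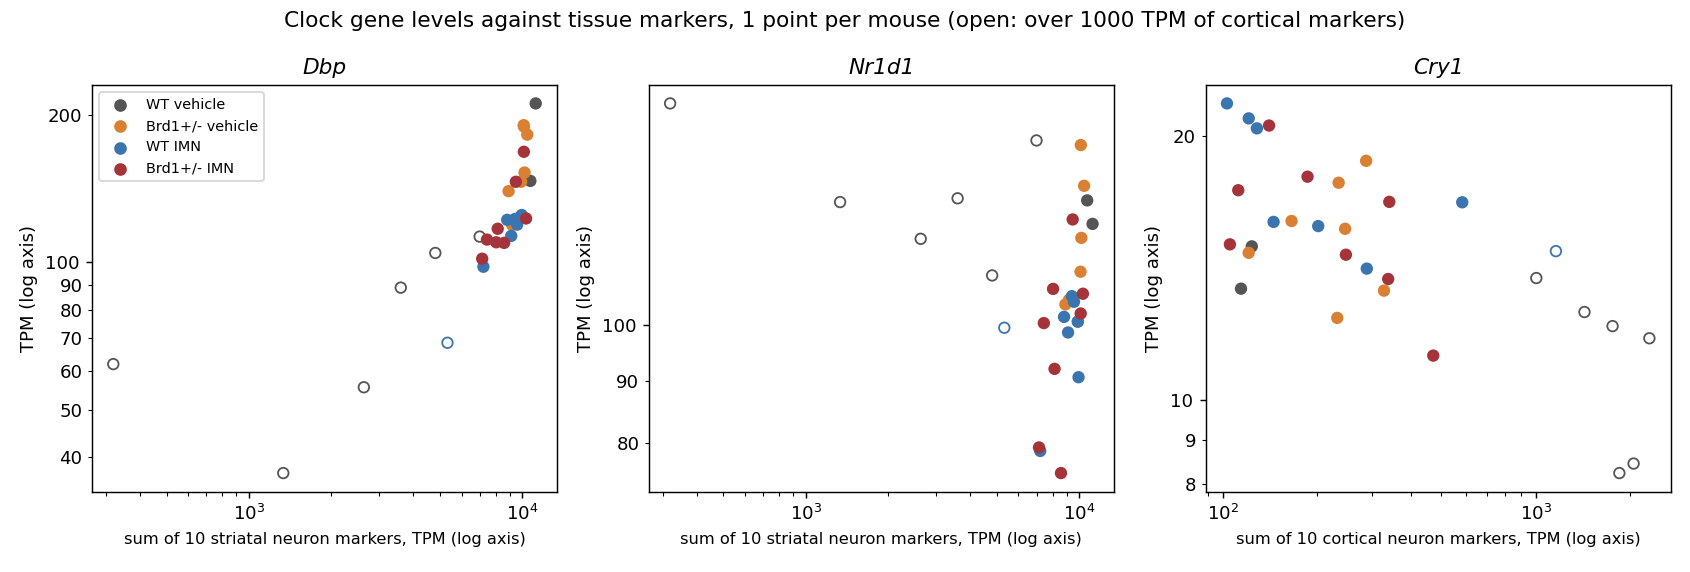
Level of Dbp and Nr1d1 against the sum of 10 striatal projection neuron markers, and of Cry1 against the sum of 10 cortical neuron markers, for each of 31 mice in TPM on log axes; open points are the 7 cortex-rich mice. Dbp is higher in punches with a larger striatal marker sum, whereas Nr1d1 is highest in WT vehicle mouse 2, which has the lowest striatal sum.

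Dbp was higher in punches with more striatal marker. Its r with the striatal projection neuron score was 0.75 over 31 mice (permutation p = 6e-05, adjusted p = 0.000624), with Spearman rho = 0.94 (permutation p = 1e-05, the smallest that 100000 resamples can give). It was 0.83 without the 2 mice farthest from the median and 0.78 within the 24 mice that were not cortex-rich (permutation p = 2e-05, adjusted p = 0.00078). Within the 7 cortex-rich mice it was 0.55 (exact permutation p = 0.211). As deviations from the group means it was 0.71 over all mice (permutation p = 0.009, adjusted p = 0.0501) and 0.73 within the 24 (permutation p = 2e-05, adjusted p = 0.00078). Spearman rho of these deviations over all mice was 0.88 (permutation p = 1e-05, adjusted p = 0.00039). Its r with the cortical score was -0.71 over all mice (permutation p = 1e-05, adjusted p = 0.00039, Spearman rho = -0.71 with permutation p = 4e-05), -0.67 without the 2 farthest mice, and -0.33 within the 24 (permutation p = 0.120).

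The genes whose deviations from the group means were most like those of Dbp over the 31 mice, out of 17373 genes with a mean of at least 1 TPM, were Mgat5b (r = 0.947), Chrm4 (r = 0.944), Lingo3 (r = 0.934), Slc32a1 (r = 0.925) and 2010300C02Rik (r = 0.919). Chrm4 encodes the muscarinic M4 receptor and Slc32a1 the vesicular GABA transporter. The most opposite were Zfp703 (r = -0.881), Gm5518 (r = -0.880), Phyhipl (r = -0.873), Brd9 (r = -0.870) and Prps2 (r = -0.867). Arntl was the clock member nearest to Dbp by this measure, at rank 762, while Nr1d1 stood at rank 2855. These values describe the spread among punches, and the points share library composition.

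Arntl itself was lower in punches with more cortical marker, with r = -0.64 over 31 mice (permutation p = 8e-05, adjusted p = 0.000624, Spearman rho = -0.70 with permutation p = 3e-05), -0.60 without the 2 farthest mice and -0.63 within the 24 mice (permutation p = 0.00104, adjusted p = 0.0101). Within the 7 cortex-rich mice it was -0.29 (exact permutation p = 0.524). Most like Arntl were Ago4 (r = 0.781), Fam84b (r = 0.749), AI593442 (r = 0.741), Ankk1 (r = 0.736) and Stc1 (r = 0.736), and most opposite were Colgalt2 (r = -0.826), Dhcr7 (r = -0.787), Nrp2 (r = -0.773), Pea15a (r = -0.767) and Mrpl48 (r = -0.762). Cry1 stood at r = -0.66 with the cortical score over all mice (permutation p = 6e-05, adjusted p = 0.000624, Spearman rho = -0.60 with permutation p = 0.00054), -0.64 without the 2 farthest mice, -0.36 within the 24 (permutation p = 0.0869) and -0.41 within the 7 (exact permutation p = 0.363). Nr1d1 changed sign with the mice included: its r with the striatal score was -0.41 over all mice (permutation p = 0.0240, adjusted p = 0.0781, Spearman rho = 0.02 with permutation p = 0.898), -0.05 without the 2 farthest mice and 0.64 within the 24 (permutation p = 0.00084, adjusted p = 0.0101).

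A list of 12 genes that glucocorticoids are known to raise was set beside the clock genes as a readout of stress hormone. With IMN averaged over genotypes, 5 of these 12 were higher and 0 lower at p under 0.01, with a median log2 fold change of 0.20 against -0.03 for all genes, where 5.88% of all genes were called in either direction. Ddit4, an inhibitor of mTORC1 signalling, rose by 0.68 (SE 0.11, limma adjusted p = 0.00499) and Plin4, a lipid droplet protein, by 1.03 (SE 0.24, limma adjusted p = 0.0456). Sgk1, a kinase, had a log2 fold change of 0.65 and Nfkbia, an inhibitor of NF-kappaB, one of 0.37 (limma adjusted p = 0.0699 and 0.112). In WT 1 of 12 was called (Ddit4, 0.48), against 6.95% of all genes. In Brd1+/- mice 7 of 12 were higher, by smallest p Ddit4 (0.87), Plin4 (1.29), Sgk1 (0.90) and Cdkn1a (0.60), a cell cycle inhibitor, then Zbtb16, Nfkbia and Errfi1, against 1.83% of all genes. The mean log2 level of 5 oligodendrocyte markers ran from 6.89 to 8.31 in Brd1+/- vehicle mice and from 6.73 to 9.21 in Brd1+/- IMN mice, and that of 5 astrocyte markers from 4.89 to 5.48 and from 4.79 to 5.80. In that comparison 5 of 5 oligodendrocyte markers had positive estimates (median 0.41) and 4 of 5 astrocyte markers (median 0.09), with 0 called by limma and 0 at an unadjusted p under 0.05, and their part in the list's difference was not tested. The average over genotypes gave 6 of 12 without the cortex-rich mice, against 3.07% of all genes. Zbtb16, a transcription factor, was called lower in Brd1+/- mice under vehicle (-1.34), 1 of 12 against 13.6% of all genes, and for the interaction (1.71), 1 of 12 against 3.74%. Per1, which glucocorticoids are also known to raise, did not pass in either direction.

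Across mice, Dbp and Ciart were lower where the mean log2 level of those 12 genes was higher. They were the members that passed by Pearson r. Arntl (r = -0.43, permutation test adjusted p = 0.0578) and Per2 (r = -0.42, permutation test adjusted p = 0.0631) came next, while Per3 leaned the other way (r = 0.35, permutation test adjusted p = 0.129). For Dbp r was -0.65 over 31 mice (permutation p = 7e-05, adjusted p = 0.000624, Spearman rho = -0.63 with permutation p = 0.00026), -0.52 without the 2 farthest mice and -0.57 within the 24 mice that were not cortex-rich (permutation p = 0.00392, adjusted p = 0.0306). Within the 7 cortex-rich mice it was -0.74 (exact permutation p = 0.0567). For Ciart r was -0.52 over 31 mice (permutation p = 0.00267, adjusted p = 0.0149, Spearman rho = -0.50 with permutation p = 0.00499), -0.48 without the 2 farthest mice and -0.47 within the 24 (permutation p = 0.0199, adjusted p = 0.0862). Within the 7 it was -0.88 (exact permutation p = 0.00794), and that of Per2 was -0.91 (exact permutation p = 0.00694). The exact p-values within the 7 are not adjusted over the 39 pairs. As deviations from the group means r of Ciart was -0.36 (permutation p = 0.0721), so its relation did not pass once group means were removed. That of Dbp stood at r = -0.63 (permutation p = 0.00135, adjusted p = 0.0132) and Spearman rho = -0.38 (permutation p = 0.0467, adjusted p = 0.152). With the group means and the cortex-rich mice both removed, r was -0.15 for Dbp (permutation p = 0.542) and -0.15 for Ciart (permutation p = 0.512), and neither relation passed. The part of tissue make-up in these relations was not tested.

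Of 12 immediate early genes, which neurons switch on within minutes of activity, 7 were lower and 0 higher with IMN averaged over genotypes, with a median of -0.46, against 5.88% of all genes called. Arc, a synaptic regulator, fell by 1.13 on the log2 scale (SE 0.14, limma adjusted p = 0.000253), and Egr1 and Npas4, activity-dependent transcription factors, fell by 0.51 and 0.80 (limma adjusted p = 0.0112 and 0.0418). Ier2 had a log2 fold change of -0.68 (limma adjusted p = 0.0520). In the mice that were not cortex-rich, 3 of 12 were lower against 3.07% of all genes called. In WT, 4 were lower (Arc -1.13, Ier2 -1.26, Fos -1.31 and Dusp1 -0.54) against 6.95% of all genes. In Brd1+/- mice 5 were lower, by smallest p Egr1 (-0.60), Arc (-1.12), Npas4 (-1.12), Nr4a1 (-0.53) and Fos (-0.73), against 1.83%. Between genotypes under IMN 1 of 12 was lower in Brd1+/- mice (Arc, -0.65) against 0.703% of all genes. Under vehicle 1 of 12 was lower (Ier2, -1.04), a share below the 13.6% of all genes, and the interaction called 1 (Ier2, 1.16) against 3.74%. Averaged over treatments, Arc (-0.66), Fos (-0.87), Dusp1 (-0.35) and Ier2 (-0.46) were lower, 4 of 12 against 12.5% of all genes, and without the cortex-rich mice 0 of 12 were called by limma, with 0 at an unadjusted p under 0.05 and 0.778% of all genes called.

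Of 20 further clock genes, 1 was higher and 2 lower with IMN averaged over genotypes, with a median of -0.10, against 5.88% of all genes called. Npas2, which can take the place of CLOCK beside ARNTL, rose by 0.37 (SE 0.08, limma adjusted p = 0.0418). Bhlhe40, a repressor at E-boxes, had a log2 fold change of -0.58 (SE 0.17, limma adjusted p = 0.0897), and Rorb, which is also among the cortical markers used here, one of -0.37 (limma adjusted p = 0.0778). With IMN in WT, Npas2 (0.47) and Bhlhe40 (-0.96) were called (limma adjusted p = 0.141 for each), 2 of 20 against 6.95% of all genes. In Brd1+/- mice 0 of the 20 passed by limma against 1.83%, with 4 at an unadjusted p under 0.05. Without the cortex-rich mice, 2 of the 20 were higher and 0 lower with IMN averaged over genotypes, where 477 of all genes were higher and 273 lower. Between genotypes averaged over treatments 5 of the 20 were called, against 12.5% of all genes. Tef, a relative of Dbp that also acts on D-boxes, was higher in Brd1+/- mice by 0.24 (limma adjusted p = 0.0640). Nfil3, a repressor at D-boxes, was lower by a log2 fold change of -0.55 (limma adjusted p = 0.0398), Csnk1e, a kinase that acts on PER proteins, by -0.31 (limma adjusted p = 0.0398) and Timeless by -0.53 (limma adjusted p = 0.0551). Rorb was the other of the 4 that were lower. Under vehicle alone, Nfil3 (-0.89), Csnk1e (-0.45) and Arntl2 (-0.98), a relative of Arntl, were lower, 3 of 20, a share close to the 13.6% of all genes. Without the cortex-rich mice, 0 of the 20 were called by limma in either of these 2 genotype comparisons, with 1 at an unadjusted p under 0.05 in each. All genes were then called at 0.892% and 0.778%, so a count of 0 lies near the background. With all mice, 10 of 10 cortical markers had negative estimates averaged over treatments, with a median log2 fold change of -1.09, and 10 of 10 striatal markers positive ones, with a median of 0.82. Their part in the differences of these clock genes was not tested.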

How the data were processed

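RNA of the CPu was sequenced with 50-base single-end reads on a BGISEQ-500. Per the labels and the study's methods, the authors aligned the reads with HISAT2 2.1.0 to GRCm38 with Ensembl release 90 and quantified genes with StringTie 1.3.4; FastQC and Trimmomatic are also named. The deposited values are TPM, summing to 999787 to 999918 in each mouse, so a gene that takes more of a library lowers the rest. TPM keep no depth, and the study's methods state a minimum of clean reads per sample but no total for each, so the precision of single values is unknown. Whether counting used strand is not given in the sources used here.

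TPM were tested as log2(TPM + 1) with limma 3.58.1 (R 4.3.3; empirical Bayes with trend), for genes that exceeded 0.1 TPM in 7 or more mice of the fit. Pairwise comparisons used their 2 groups; the interaction and averaged comparisons used all 4. Calls are at p under 0.01, with Benjamini-Hochberg adjustment over all genes tested for an FDR of 5%. Fold changes on this scale understate those of low genes. The p-values measure the spread between mice. On simulated data for the genotype comparison under vehicle (24588 genes), 172 of 200 genes changed by 0.5 on the log2 scale were called at p under 0.01. At an FDR of 5%, 123 of them passed. Every simulated mouse was given the spread of the Brd1+/- vehicle group, with genes drawn independently. These rates therefore do not cover genes that were more spread among WT vehicle mice, such as Dbp (SD 0.80 against 0.25). Per1, Per3 and Nr1d1 were less spread there.

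All 10 members are named, and of the other lists those at p under 0.01, up to 4 per list and comparison, plus the 5 nearest and 5 most opposite genes to Dbp and Arntl. Members and lists were chosen with earlier results of these data known. Alternatives were another pseudocount, other filters, scalings, no trend, a replicate block, all groups in 1 fit, covariates (cortical score; position in the deposit order), exact permutation and leaving out each mouse. The comparisons without the 7 cortex-rich mice and with the striatal score were added after seeing the data.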

Additional observations from a re-analysis of the deposited data

Results flagged for a closer look

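For Cry1 the interaction of genotype and IMN was called, at -0.50 on the log2 scale (limma adjusted p = 0.261, unadjusted under 0.01). The log2 fold change was 0.53 in WT and 0.03 in Brd1+/- mice. Of all 25394 genes, 3.74% were called for the interaction and 0 passed at an FDR of 5%. The call of Cry1 held in 18 of 31 fits that left out a single mouse. Without the 7 cortex-rich mice the interaction of Cry1 was -0.28 and was not called. No single mouse stood far from the rest of its group in any of 40 sets of levels (10 genes in 4 groups) by Dixon's test, where chance gives about 1 in 20.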

How the results depend on the processing

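The call of Nr1d1 with IMN averaged over genotypes at p under 0.01 held under 11 of 11 alternatives, and in WT under 11 of 13. Members called between genotypes under vehicle went from 0 to 2 under median-of-ratios scaling, quantile normalization and 1 fit of all 4 groups (9.22%, 9.53% and 19.7% of all genes called), and to 1 with the deposit order as covariate. With the mouse number as a replicate block it was also 1 (Dbp, log2 fold change 0.98), where 17.7% of all genes were called. The numbers were not taken to pair mice. Same-numbered pairs correlated above 0.1 in 0 of 7 cases between genotypes under vehicle and in 2 of 8 under IMN. With IMN they did so in 2 of 8 cases in WT and in 3 of 7 in Brd1+/- mice. With the block no other count of members called moved by over 1.5 times (IMN averaged over genotypes went from 3 to 2). All genes passing at an FDR of 5% went from 0 to 3583 under vehicle and from 115 to 69 with IMN averaged over genotypes. With IMN in WT, 1 member instead of 2 was called under either scaling. With IMN in Brd1+/- mice, 2 instead of 1 were called under either scaling and with the cortical score, and 0 in 1 fit of all 4 groups, with the striatal score and in the exact permutation test. The interaction, and genotype averaged over treatments, called 0 instead of 1 with either score as covariate and without the cortex-rich mice. Leaving out each mouse in turn gave 0 to 2 members between genotypes under vehicle, 0 to 2 with IMN in Brd1+/- mice, 0 to 2 for the interaction and 0 to 1 for genotype averaged over treatments; 13 and 9 of the single mice ended the calls of Cry1 (interaction) and Dbp (IMN in Brd1+/-). Without the cortex-rich mice the log2 fold change of Dbp turned to -0.58 with IMN in WT and to -0.052 for genotype averaged over treatments. Relations are counted here by the adjusted p of Pearson r. Among relations with Arntl, 1 passed, 0 as deviations from group means and without the cortex-rich mice, with or without group means removed, 3 under median-of-ratios scaling, 2 without the 2 farthest mice, and 0 to 2 leaving out single mice. Among relations with the cortical and glucocorticoid-responsive scores 5 passed, 9 under median-of-ratios scaling, 2 without the cortex-rich mice and 0 with group means also removed. Without those mice, r with the striatal score turned to -0.15 for Cry1 (-0.053 with group means removed) and to 0.64 for Nr1d1. The cause of these changes was not tested.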
